A study of Homo sapiens with 6 samples.

Results

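The aminoacyl-tRNA synthetase genes are the genes whose products load each amino acid onto its tRNA. They were selected from the deposited gene table by symbol only. The symbol was a 1-letter amino acid code followed by ARS, with an optional 1 or 2, or was FARSA, FARSB or FARS2. This rule used no expression value, but the family was chosen with earlier results of these data known. The rule selected 36 of the 27942 genes listed, of which 19 encode cytosolic enzymes and 17 encode mitochondrial enzymes, whose symbols end in 2. All 36 passed the filter on low counts that left 13727 genes to test. The table uses older symbols, so that AARS is the gene now called AARS1 and SARS is now SARS1. The cytosolic enzyme that charges both glutamate and proline, EPRS, was not matched by the symbol pattern and is given below with the other genes of tRNA charging.

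The study measured polyadenylated RNA in HCT116, a human colorectal cancer cell line with functional p53, by stranded paired-end RNA sequencing. The OXA group was cultured with 0.5 µM oxaliplatin, a platinum drug that forms DNA adducts, for 24 h, and the NT group received no drug. Both groups had 3 libraries of the same line, grown in the same serum-supplemented RPMI medium. The labels give the number of cells behind each replicate but do not say that replicates were separate cultures, so p-values here measure the spread between these samples, which may be technical. Because the samples are bulk RNA, fewer cells expressing a gene and less RNA per cell cannot be told apart.

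Each library held between 32979521 and 40967880 counts, and synthetase genes took between 0.510% and 0.585% of them. The p53 targets CDKN1A, MDM2 and TP53I3 rose by 2.93, 2.22 and 2.83 on the log2 scale in OXA, as the label of that group implies. The epithelial marker EPCAM was abundant in every library, and 0 of 5 leukocyte, 1 of 5 fibroblast and 1 of 4 endothelial markers passed the filter on low counts, whereas VIL1 of the intestinal brush border was below 3 CPM, the counts of a gene scaled to a common library total after TMM normalization, in every library. Libraries with the same number in NT and OXA deviated together from their group means, with correlations across genes between 0.438 and 0.767. The library number was therefore also used as a block in a second fit, whose values stand beside each call that it changed. The library NT1 stood apart from NT2 and NT3 by the GC content of the transcripts: across the 36 synthetase genes, the log2 difference of NT1 from the mean of NT2 and NT3 had a Pearson correlation of -0.857 with transcript GC percent, and across 13675 genes the correlation was -0.78. Values without NT1 are given beside the synthetase results that it moved by over 1.5 times. NT1 and OXA1 deviated together from their group means (r 0.765), and the fits without NT1 keep OXA1. Values without NT1 therefore show how far a result rests on NT1, and are not a corrected estimate.

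A synthetase recognises an amino acid and its tRNAs, and joins them in an ATP-dependent reaction before the charged tRNA is delivered to the ribosome. Cytosolic and mitochondrial translation use separate sets of enzymes, nearly all encoded by separate nuclear genes, with GARS and KARS serving both compartments. Uncharged tRNA activates the kinase GCN2 (gene EIF2AK4), which phosphorylates eIF2 and raises translation of the transcription factor ATF4, and many cytosolic synthetase genes are known targets of ATF4, together with ASNS and genes of serine synthesis.

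Of the 36 synthetase genes, 3 changed in OXA at an adjusted p under 0.05 in edgeR's quasi-likelihood test, that is 8.33%, beside 5.07% of all 13727 genes tested. SARS and HARS, for serine and histidine, rose, beside 2.78% of all genes that did so, and AARS, for alanine, fell, beside 2.29%. In edgeR, 0 of the 36 passed the test with a change over 1.5-fold, whereas 3.41% of all genes did. With the replicate block the count was 9 of 36, with 5 higher and 4 lower, or 25% beside 23.0% of all genes (12.1% higher and 10.9% lower), so neither share stood far from that of all genes. By compartment these were 8 of 19 cytosolic genes and 1 of 17 mitochondrial genes, a difference that was not tested. This split depended on the fit. With the block and with GC and length trends removed, a fit chosen after seeing the data, 44% of all genes were called. The mitochondrial genes called there were FARS2, IARS2, MARS2, RARS2, SARS2, VARS2 and YARS2, and its other synthetase calls were cytosolic. The groups did not overlap for 12 of the 36 genes (6 higher and 6 lower in OXA), beside 28.9% of all genes (14.5% higher and 14.4% lower), and 7 of 36 had an unadjusted p under 0.05, beside 21.7%. The call count changed when 1 library was left out, as did the share of all genes called. Without NT1 it was 4 (AARS, MARS, SARS and HARS), where 8.6% of all genes were called. Without any single one of the other libraries it was 0, where between 0.611% and 2.16% of all genes were called. Over these 6 fits the adjusted p in edgeR ran from 0.0175 to 0.132 for AARS, from 0.0154 to 0.151 for SARS and from 0.035 to 0.214 for HARS.

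**Figure D1:**
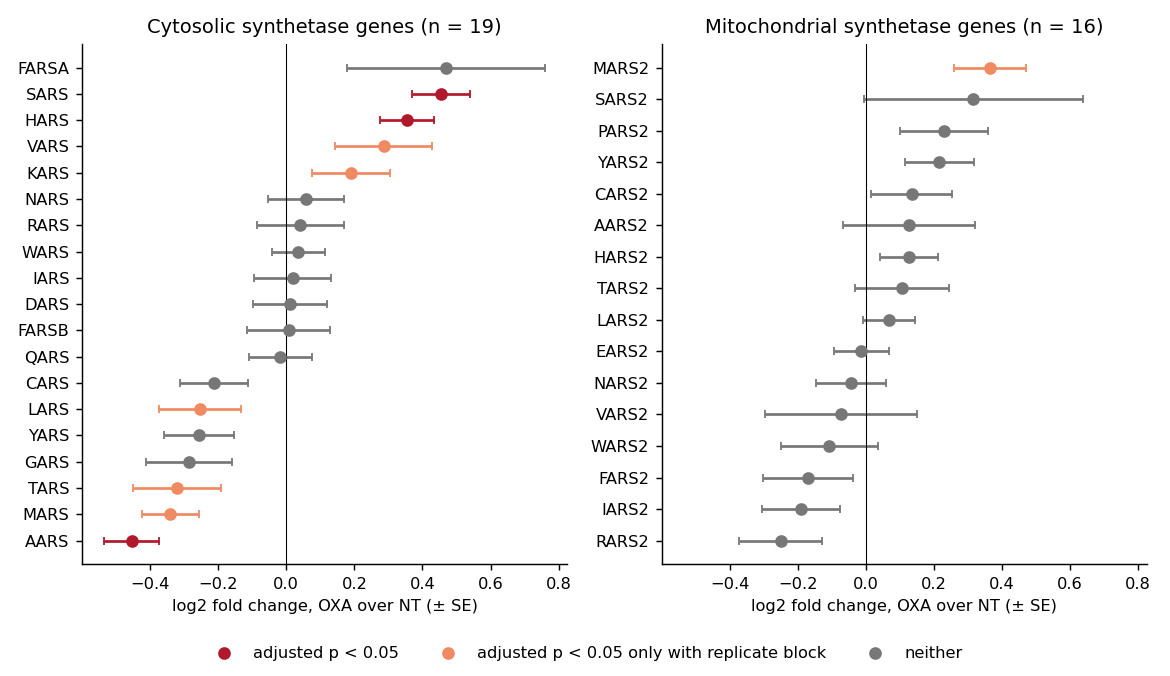
Log2 fold change of each synthetase gene, OXA over NT, from edgeR with its standard error as bars (3 libraries a group), for the 19 cytosolic genes on the left and 16 of the 17 mitochondrial genes on the right, with dark red for an adjusted p under 0.05, orange for genes under 0.05 only with the replicate block, and grey for the others. The cytosolic genes spread from -0.45 for AARS to 0.47 for FARSA, and only 1 mitochondrial gene, MARS2, is coloured.

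The synthetase genes were next described by the sequence at their start sites. ATF4, with a C/EBP partner, binds a response element whose core is written TGATGNAA, and this core was searched on both strands in the RefSeq promoters of GRCh38.p14, from 250 bases before to 50 bases after the start. Of the 36 genes, 29 had a promoter in that table, and the others, among them AARS2, DARS, LARS, VARS, VARS2 and YARS, had none. The core was present in 7 of the 15 cytosolic genes with a promoter and in 1 of the 14 mitochondrial genes (YARS2), beside 3.62% of all 35116 promoters and 4.46% of 27305 genes. The 7 cytosolic windows are shown because 6 of them hold the same 8 letters. These 6 carried TGATGCAA on one strand or the other, a form found in 0.866% of all promoters. Each line gives the gene and 30 bases, 5′ to 3′ along the gene, with the match in capitals, where TTGCATCA is TGATGCAA read on the other strand:
AARS: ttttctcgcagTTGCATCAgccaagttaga
CARS: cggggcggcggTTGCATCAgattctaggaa
GARS: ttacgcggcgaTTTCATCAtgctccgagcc
IARS: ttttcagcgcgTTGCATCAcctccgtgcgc
MARS: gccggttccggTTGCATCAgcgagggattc
NARS: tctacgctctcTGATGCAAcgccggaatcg
TARS: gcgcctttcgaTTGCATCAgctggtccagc

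These windows lie in GRCh38 at chr16:70289675-70289704 on the minus strand for AARS, chr11:3057407-3057436 (minus) for CARS, chr7:30594834-30594863 (plus) for GARS, chr9:92293692-92293721 (minus) for IARS, chr12:57488053-57488082 (plus) for MARS, chr18:57621804-57621833 (minus) for NARS and chr5:33440956-33440985 (plus) for TARS. The match began 187 bases before the start in AARS, 33 before it in GARS, 13 before it in IARS, 4 before it in MARS and 2 before it in CARS, and at bases 3 and 15 after it in TARS and NARS. These starts are those of the RefSeq promoters and can lie inside the GENCODE gene spans given below, as for AARS and MARS. The fitted log2 fold changes of the 7 cytosolic genes with a match had a median of -0.29, with 5 below 0 and 2 above. The 8 cytosolic genes with a promoter and no match had a median of 0.12, with 7 above 0 and 1 below. The 4 with no promoter entry had a median of -0.12. Without NT1 these medians were -0.18, 0.18 and -0.0173, with the same number of genes on each side of 0. These medians are a description of the genes in the table: a match of letters is not a measured binding site, and binding was not measured.

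Neither SARS nor HARS, the genes that rose, had the core in a window, and the bases before their starts are shown for contrast. Upstream of SARS, at chr1:109213668-109213917 on the plus strand, the 250 bases before the start read as follows, in lower case throughout because nothing matched:
SARS: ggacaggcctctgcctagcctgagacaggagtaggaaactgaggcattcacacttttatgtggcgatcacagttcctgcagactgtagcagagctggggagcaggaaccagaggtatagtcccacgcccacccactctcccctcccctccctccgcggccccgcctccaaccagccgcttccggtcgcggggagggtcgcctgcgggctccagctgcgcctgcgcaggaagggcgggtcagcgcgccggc
HARS and HARS2 start in opposite directions on chromosome 5, at positions 140691370 and 140691455 of their canonical transcripts, 85 bases apart, so 1 short stretch lies before both. Read along HARS (chr5:140691371-140691454, minus strand), it is:
HARS: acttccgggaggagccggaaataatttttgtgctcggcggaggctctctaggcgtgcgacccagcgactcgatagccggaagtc

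Among the cytosolic genes that were lower in OXA, AARS was the one called by both fits. AARS (ENSG00000090861, chr16:70251983-70289707, minus strand) stood at 352.4, 351.4 and 334.0 CPM in NT1, NT2 and NT3, and at 254.5, 239.9 and 263.3 CPM in OXA1, OXA2 and OXA3. Every OXA library was below every NT library. The mean level fell by 27.0%, a log2 fold change of -0.45 (SE 0.081) with an adjusted p of 0.0236 in edgeR, and its direction held in all 15 alternative fits.

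MARS (chr12:57475445-57517569, plus strand), for methionine, stood at 256.6, 260.3 and 267.6 CPM in NT and at 200.5, 196.7 and 222.3 CPM in OXA. The groups did not overlap, and the log2 fold change of -0.34 (SE 0.084) had an adjusted p of 0.0632 in edgeR without the block, 0.00982 with it, and 0.0452 to 0.251 when 1 library was left out, the lowest being without NT1. MARS shares 65 exonic bases with DDIT3 on the opposite strand, and it is not stated whether the counting used strand. DDIT3 was at 6.60 ± 0.558 CPM (SD, n = 3) in NT.

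TARS (chr5:33440696-33468091, plus strand), for threonine, stood at 405.8, 316.8 and 300.6 CPM in NT and at 292.0, 254.4 and 273.1 CPM in OXA. The groups did not overlap, although the highest value was that of NT1. The adjusted p in edgeR was 0.204 without the block and 0.0324 with it, for a log2 fold change of -0.32 (SE 0.13), which was -0.18 without NT1.

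LARS (chr5:146110566-146182696, minus strand), for leucine, stood at 274.7, 218.4 and 224.9 CPM in NT and at 218.7, 180.6 and 203.3 CPM in OXA. Here OXA1 was above NT2, so the groups overlapped, and the log2 fold change of -0.25 (SE 0.12) had an adjusted p in edgeR of 0.275 without the block and 0.0278 with it. Its value without NT1 was -0.14. GARS and YARS, for glycine and tyrosine, also had every OXA library below every NT library, with log2 fold changes of -0.29 (-0.15 without NT1) and -0.26, and missed the threshold in both fits, at adjusted p in edgeR of 0.0551 and 0.0538 with the block.

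Among the genes higher in OXA, SARS and HARS were called by both fits. SARS (ENSG00000031698, chr1:109213918-109238182, plus strand) stood at 168.5, 161.2 and 158.9 CPM in NT and at 238.2, 222.7 and 208.8 CPM in OXA. All 3 OXA libraries were above all NT libraries, and the level rose by 37.1%, a log2 fold change of 0.45 (SE 0.085) with an adjusted p of 0.0274 in edgeR.

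HARS (ENSG00000170445, chr5:140673035-140691537, minus strand) stood at 133.0, 128.3 and 131.3 CPM in NT and at 175.7, 164.8 and 161.2 CPM in OXA. The NT libraries lay close together and below all OXA libraries, and the level rose by 27.8%, a log2 fold change of 0.35 (SE 0.079) with an adjusted p of 0.0472 in edgeR. HARS shares 220 exonic bases with WDR55 on the opposite strand. WDR55 was at 48.5 ± 4.30 CPM (SD, n = 3) in NT and 55.9 ± 1.25 CPM in OXA. HARS2, whose canonical start is 85 bases away, shares 83 exonic bases with other HARS transcripts on the opposite strand, and had a log2 fold change of 0.13 (SE 0.086) and an adjusted p of 0.449 in the same fit. Direction was kept in all 15 alternative fits for SARS and for HARS. With the authors' gene-specific factors neither SARS nor HARS was called, and AARS alone of the 36 remained called, where 3.21% of all genes were called.

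VARS, for valine, and KARS, for lysine, passed the threshold only with the block. VARS (chr6:31777518-31795752, minus strand) stood at 200.4, 288.3 and 268.1 CPM in NT and at 284.0, 324.8 and 313.8 CPM in OXA. NT1 was the lowest library and OXA1 lay below NT2, so the groups overlapped. Its log2 fold change of 0.29 (SE 0.14) had an adjusted p in edgeR of 0.295 without the block and 0.0388 with it, and was 0.14 without NT1. The VARS transcript has 61.7% GC, the highest of the cytosolic genes. With the block and with GC and length trends removed, its log2 fold change was 0.15 at an adjusted p of 0.0186 in edgeR, beside 0.30 with the block alone.

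KARS (chr16:75627474-75648643, minus strand) stood at 368.7, 303.4 and 295.5 CPM in NT and at 401.6, 357.0 and 345.7 CPM in OXA. Each OXA library exceeded the NT library of the same number, but NT1 was above OXA2 and OXA3. The adjusted p in edgeR went from 0.389 to 0.0402 with the block, for a log2 fold change of 0.19 (SE 0.11) that was 0.30 without NT1.

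**Figure D2:**
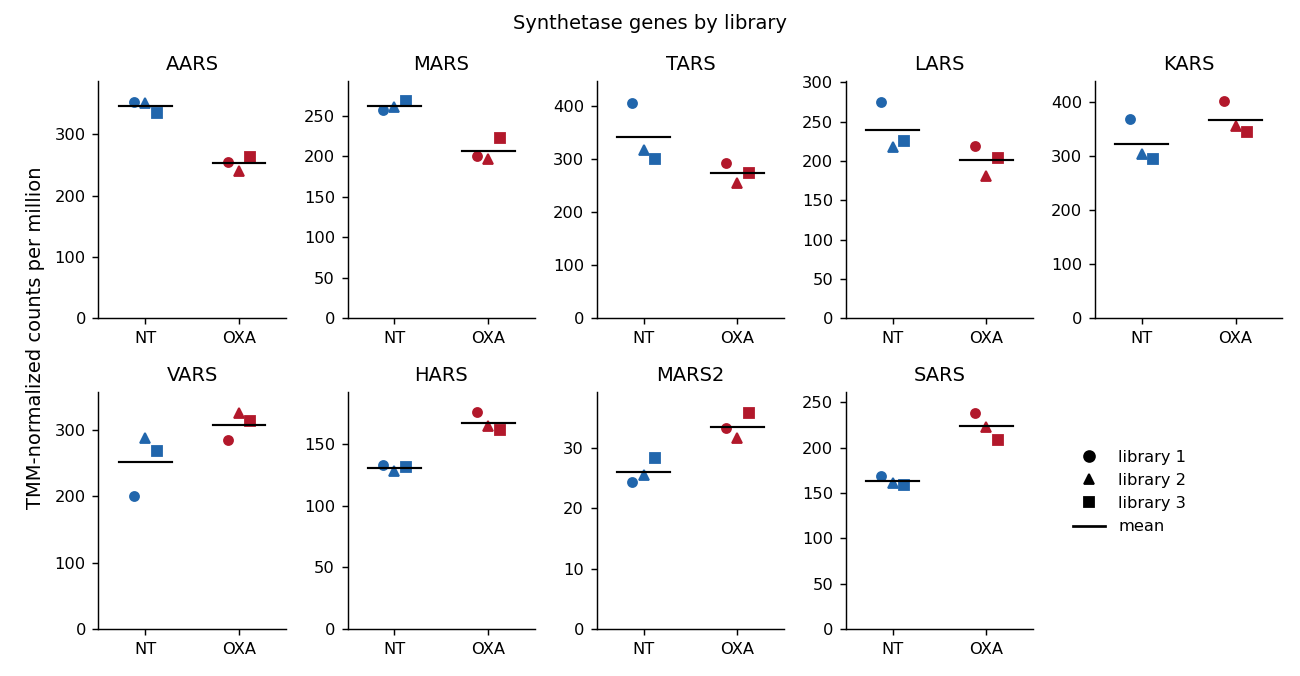
TMM-normalized CPM of the 9 synthetase genes with an adjusted p under 0.05 in edgeR with the replicate block, by library, with NT in blue, OXA in red, a symbol for each library number and a line at the group mean. The groups are apart for AARS, MARS, TARS, HARS, MARS2 and SARS, and overlap for LARS, KARS and VARS, where the same-numbered libraries still differ in 1 direction.

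The other 11 cytosolic genes were called in neither fit. FARSA, the catalytic subunit for phenylalanine, had the highest fitted value of the 36 genes at 0.47, but an SE of 0.29 and an adjusted p of 0.405 in edgeR: it stood at 49.7, 115.5 and 92.1 CPM in NT and at 99.8, 147.9 and 108.6 CPM in OXA, with NT1 far below the rest. Without NT1 its fold change was 0.19, below those of SARS and HARS, and with the block and GC and length trends removed it was 0.34. Its transcript has 61.3% GC. Its partner subunit FARSB had a log2 fold change of 0.0069 (SE 0.12), which was 0.13 without NT1. CARS, for cysteine, was at -0.21 (SE 0.10). The log2 fold changes of DARS, IARS, NARS, QARS, RARS, WARS and FARSB all lay within 0.1 of 0, and without NT1 between -0.085 and 0.17.

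The 17 mitochondrial genes gave 0 calls in edgeR without the block, beside 5.07% of all genes, and 1 with it, beside 23.0%. At an unadjusted p under 0.05 there was 1, beside 21.7% of all genes, and DESeq2 called 0, beside 9.24% of all genes in DESeq2. MARS2, the mitochondrial methionine enzyme and a single-exon gene (chr2:197705369-197708395, plus strand), stood at 24.3, 25.6 and 28.3 CPM in NT and at 33.2, 31.6 and 35.8 CPM in OXA. All OXA libraries were above all NT libraries, with a log2 fold change of 0.36 (SE 0.11) and an adjusted p in edgeR of 0.0958 without the block, 0.0184 with it and 0.0984 to 0.308 when 1 library was left out. The other 16 mitochondrial genes were called in neither fit.

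LARS2, PARS2 and YARS2 also had every OXA library above every NT library, at log2 fold changes of 0.07, 0.23 and 0.22, and RARS2 had every OXA library below, at -0.25. Without NT1, PARS2 was at 0.13 and RARS2 at -0.12. SARS2 had the widest error of the group, 0.32 (SE 0.32), with 11.8, 27.9 and 26.7 CPM in NT, where NT1 was again the low library, and a transcript GC of 61.4%. Without NT1 its log2 fold change was 0.013. In addition, 77.5% of the exonic bases of SARS2 lie in the read-through gene AC011455.2 on the same strand, so how its reads were assigned depends on counting rules that are not stated. The fitted values of the 17 mitochondrial genes ran from -0.25 for RARS2 to 0.36 for MARS2.

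The cytosolic set was then compared with the mitochondrial set. The median log2 fold change was 0.0096 over the 19 cytosolic genes and 0.07 over the 17 mitochondrial genes, beside 0.02 over all genes tested, so neither set as a whole was displaced by more than 0.1. Leaving out 1 library moved the cytosolic median between -0.07 (without NT2) and 0.11 (without NT1), and the mitochondrial median was -0.0026 without NT1. The summed counts of the cytosolic genes were 5.73, 5.43 and 5.13 times those of the mitochondrial genes in NT1, NT2 and NT3, and 5.61, 5.39 and 5.15 times in OXA1, OXA2 and OXA3. The log2 ratio thus differed by -0.0112 between the group means, less than its spread between libraries (SD 0.0793 in NT and 0.0622 in OXA, n = 3).

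The same ratio was then taken for single amino acids. For 16 pairs (FARSA and FARSB each against FARS2), the log2 ratio was lower in OXA for 6 and higher for 10, and it did not overlap between groups for 11 of them. A two-sided exact permutation test over 3 against 3 libraries cannot give less than 0.1 (0.145 adjusted over the 16 pairs), which these 11 reached, so it could not call any pair and the shifts are given as a description. Without NT1 the groups did not overlap for 15 of the 16 pairs, with the same 6 lower and 10 higher. Groups with fewer libraries separate more easily by chance, so this count cannot be read as stronger than the 11. The share of other gene pairs that do not overlap was not measured for either count. The widest shift was for methionine: MARS counts were 10.5, 10.2 and 9.47 times those of MARS2 in NT and 6.03, 6.22 and 6.20 times in OXA, a log2 difference of -0.71. The ratio AARS to AARS2 was 30.0, 18.1 and 20.5 in NT and 16.5, 12.4 and 15.4 in OXA, a log2 difference of -0.61, with NT1 the highest, and of -0.39 without NT1. YARS to YARS2 shifted by -0.47, TARS to TARS2 by -0.43 and LARS to LARS2 by -0.32, and without NT1 these were -0.42, -0.17 and -0.20. In the other direction, FARSA to FARS2 was 4.74, 9.39 and 7.18 in NT and 9.79, 14.4 and 9.70 in OXA, a log2 difference of 0.70, which was 0.43 without NT1. VARS to VARS2 shifted by 0.34 with groups that overlapped, and by 0.43 without NT1. RARS to RARS2 was 3.84, 3.85 and 3.89 in NT and 5.07, 4.53 and 4.55 in OXA, a log2 difference of 0.29, and HARS to HARS2 shifted by 0.22. SARS and SARS2 had log2 fold changes of 0.45 and 0.32, and their ratio, whose SD was 0.74 in NT, shifted by 0.06, or by 0.49 without NT1, where SARS2 itself was at 0.013.

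**Figure D3:**
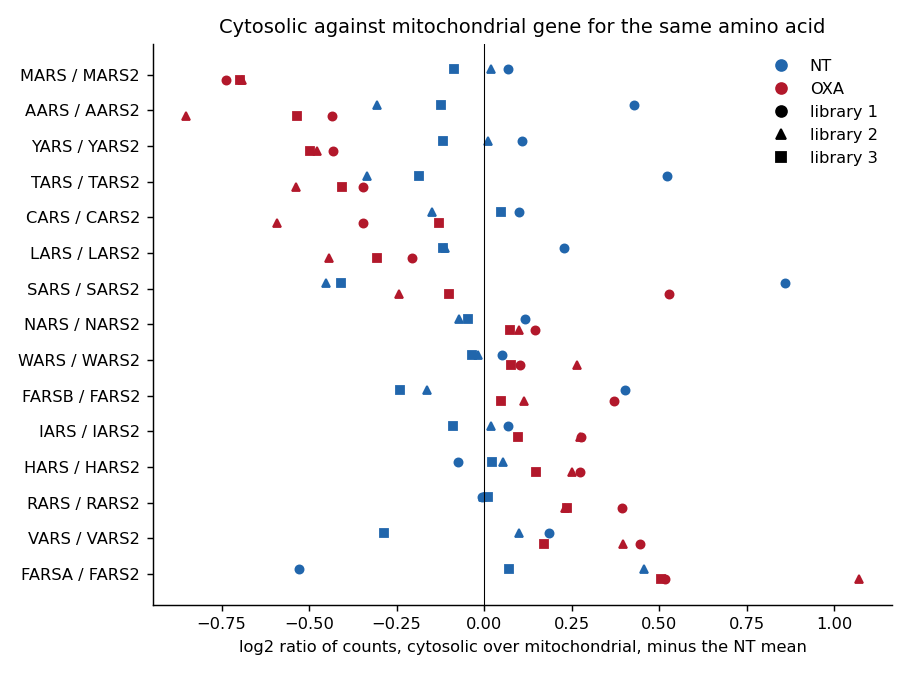
Log2 ratio of counts of the cytosolic gene over the mitochondrial gene for the same amino acid, minus the NT mean of that pair, in each library (NT blue, OXA red, symbols for library numbers), for 15 of the 16 pairs, ordered by the shift of the OXA mean. OXA libraries lie to the left for MARS, AARS, YARS, TARS and LARS and to the right for RARS, HARS, IARS and FARSA without overlap, and NT1 is far from the other NT libraries for SARS, AARS, TARS and FARSA.

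Levels were compared between genes per kilobase of the canonical transcript. In NT the cytosolic genes had a median of 85.1 CPM per kilobase and ranged from 24.9 to 162, and the mitochondrial genes had a median of 12.1 and ranged from 2.45 to 73.5. In all, 11 of the 19 cytosolic genes were above the highest mitochondrial gene, and 2 of the 17 mitochondrial genes were above the lowest cytosolic gene. KARS was highest, at 162 ± 20.2 CPM per kilobase (SD, n = 3) in NT and 185 ± 14.8 in OXA. It was followed in NT by IARS at 132 ± 15.9, TARS at 128 ± 21.2 and GARS at 125 ± 20.5, whose ranges of 1 SD overlapped with one another.

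The lowest cytosolic gene per kilobase was FARSB, at 24.9 ± 3.54 in NT. In CPM, FARSB stood at 196.1, 155.6 and 153.8 in NT and 186.4, 157.8 and 163.7 in OXA, so its place in this order turns on its canonical transcript of 6761 bases. FARSA, which forms 1 enzyme with it, was at 47.4 ± 18.4 CPM per kilobase in NT. IARS2, for isoleucine, was the highest mitochondrial gene: it stood at 282.4, 235.1 and 261.0 CPM in NT and at 231.7, 199.6 and 250.4 CPM in OXA, or 73.5 ± 6.72 CPM per kilobase in NT and 64.4 ± 7.29 in OXA. WARS2, for tryptophan, was the lowest, with 6.76, 6.76 and 6.97 CPM in NT and 6.59, 5.61 and 6.83 CPM in OXA, or 2.45 ± 0.0445 and 2.28 ± 0.233 CPM per kilobase.

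**Figure D4:**
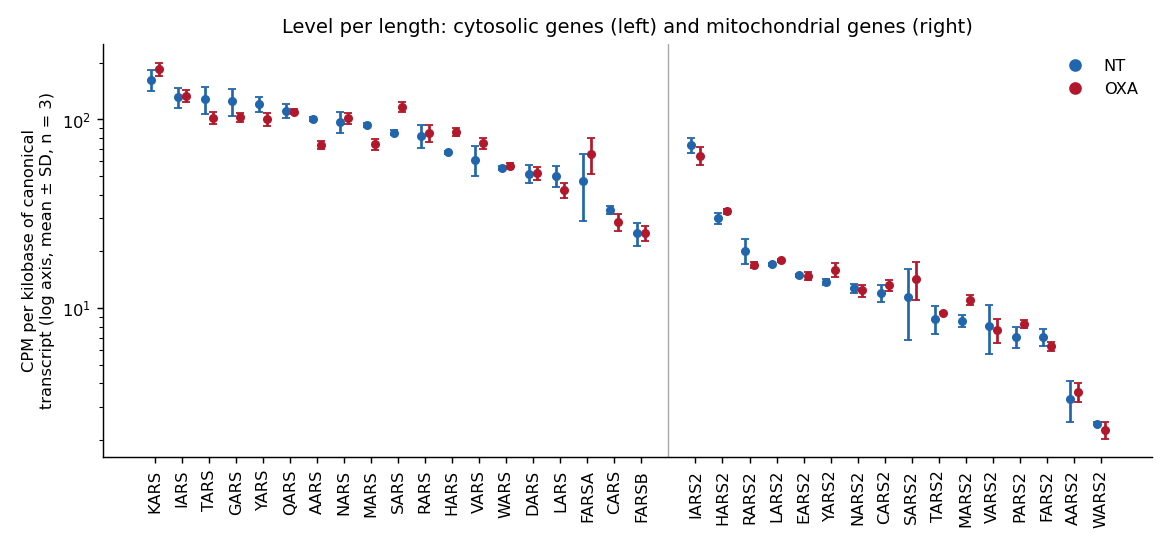
Level of each synthetase gene in CPM per kilobase of canonical transcript on a log axis, as the mean with SD over 3 libraries in NT (blue) and OXA (red), for the 19 cytosolic genes on the left and 16 of the 17 mitochondrial genes on the right in order of the NT mean. Cytosolic genes span 24.9 to 162 in NT and mitochondrial genes 2.45 to 73.5, and the wide bars of FARSA, SARS2 and VARS2 come with a low NT1.

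The synthetase genes were also grouped by known biochemistry. The share called among all genes was 5.07% in edgeR without the block, 23.0% with it and 9.24% in DESeq2. The 12 cytosolic genes listed as ATF4 targets had 1 call in each direction (SARS and AARS) and a median log2 fold change of -0.23, with 7 below 0 and 5 above; with the block, 4 were lower and 2 higher. The median was -0.14 without NT1. The 7 genes of the large cytosolic multisynthetase complex had 0 calls in edgeR without the block (1 at an unadjusted p under 0.05, and 1, MARS, in DESeq2), 1 higher and 2 lower with the block, and a median of 0.0096, or 0.11 without NT1. Of the 18 class I enzymes, which share a Rossmann-fold catalytic domain, 0 were called in edgeR without the block (3 at an unadjusted p under 0.05, and 1, MARS, in DESeq2), and of the 18 class II enzymes 3 were called, with 2 higher and 1 lower. With the block the calls were 2 higher and 2 lower in class I and 3 higher and 2 lower in class II. The dual-compartment genes GARS and KARS had values of opposite sign, -0.29 and 0.19.

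The other genes of tRNA charging were next examined. EPRS stood at 475.3, 365.9 and 372.0 CPM in NT and at 403.5, 339.8 and 399.6 CPM in OXA, groups that overlapped, with a log2 fold change of -0.09 (SE 0.13) and an adjusted p of 0.755 in edgeR; without NT1 the value was 0.05. The scaffold genes of the multisynthetase complex AIMP1, AIMP2 and EEF1E1 had positive values with no call in edgeR without the block or in DESeq2. None had an unadjusted p under 0.05. Of all genes, 21.7% did, and 5.07% were called in edgeR without the block and 9.24% in DESeq2. AIMP1 passed with the block at an adjusted p of 0.0242 in edgeR (log2 fold change 0.28), where 23.0% of all genes were called. Of the 7 genes for other charging and export steps, AARSD1, which hydrolyses alanine tRNA charged in error with serine, was the one call. It stood at 39.7, 41.9 and 40.2 CPM in NT and at 55.4, 51.9 and 51.5 CPM in OXA, a log2 fold change of 0.38 (SE 0.087) and an adjusted p of 0.0499 in edgeR. It was called in 6 of 15 alternative fits, and of the fits that left out 1 library only in that without NT1. XPOT, which exports tRNA from the nucleus, had a log2 fold change of -0.43 with an adjusted p in edgeR of 0.076 without the block and 0.0118 with it. AARS and AARSD1, which act on the same tRNA, thus moved in opposite directions.

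The next 10 genes were the eIF2 kinases, among them EIF2AK4, which uncharged tRNA activates, with ATF4 and their partners. They gave 1 call in 10 without the block, which was ATF4, beside 5.07% of all genes. With the block 2 were higher and 1 lower, beside 23.0%, and DESeq2 called ATF4 and PPP1R15A, beside 9.24% of all genes. ATF4 stood at 412.9, 392.2 and 364.9 CPM in NT and at 300.9, 281.1 and 306.0 CPM in OXA. All OXA libraries were below all NT libraries, with a log2 fold change of -0.40 (SE 0.087) and an adjusted p of 0.0443 in edgeR. When 1 library was left out it was called only without NT1, with adjusted p between 0.0412 and 0.187 in edgeR. This is the level of ATF4 mRNA, whereas ATF4 is known to be controlled largely in translation, which was not measured. EIF2AK4 (GCN2) was at 112 ± 6.16 CPM in NT and 130 ± 6.53 CPM in OXA (SD, n = 3), with a log2 fold change of 0.22 and an adjusted p in edgeR of 0.196 without the block and 0.0263 with it. DDIT3 had a log2 fold change of 0.19 (SE 0.17) and an adjusted p of 0.568 in edgeR without the block. PPP1R15A, which directs dephosphorylation of eIF2, was at 0.53, with adjusted p of 0.0544 without the block and 0.00711 with it in edgeR.

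Among 18 tested ATF4 target genes outside the synthetases, calls went both ways, with 3 higher and 1 lower, or 22.2% beside 5.07% of all genes. With the block 4 were higher and 4 lower, or 44.4% beside 23.0%. DESeq2 called 3 higher and 3 lower, beside 9.24% of all genes in DESeq2. ASNS, asparagine synthetase, stood at 148.6, 131.6 and 129.6 CPM in NT and at 67.6, 60.8 and 83.2 CPM in OXA. This was the widest drop of the list, with a log2 fold change of -0.95 (SE 0.13) and an adjusted p of 0.00983 in edgeR, and it was called in 14 of 15 alternative fits, all but that without OXA1. PHGDH, the first enzyme of serine synthesis, stood at 100.5, 147.4 and 144.5 CPM in NT and at 73.4, 81.6 and 90.6 CPM in OXA, a log2 fold change of -0.68 with an adjusted p in edgeR of 0.0561 without the block and 0.00674 with it. The 3 that rose were ATF3, SESN2 and DDIT4, which are also known targets of p53: ATF3 and SESN2 had log2 fold changes of 1.02 and 1.16, and DDIT4 went from 40.9 ± 13.1 CPM in NT to 100.9 ± 13.8 CPM in OXA (SD, n = 3). With 1 library left out, ATF3 was called only without NT1, SESN2 only without NT1 or NT3, and DDIT4 only without NT1 or NT2. XPOT, given above with tRNA export, is also in this list. The list's median was 0.03, beside 0.02 for all genes, and was -0.05 without NT1.

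**Figure D5:**
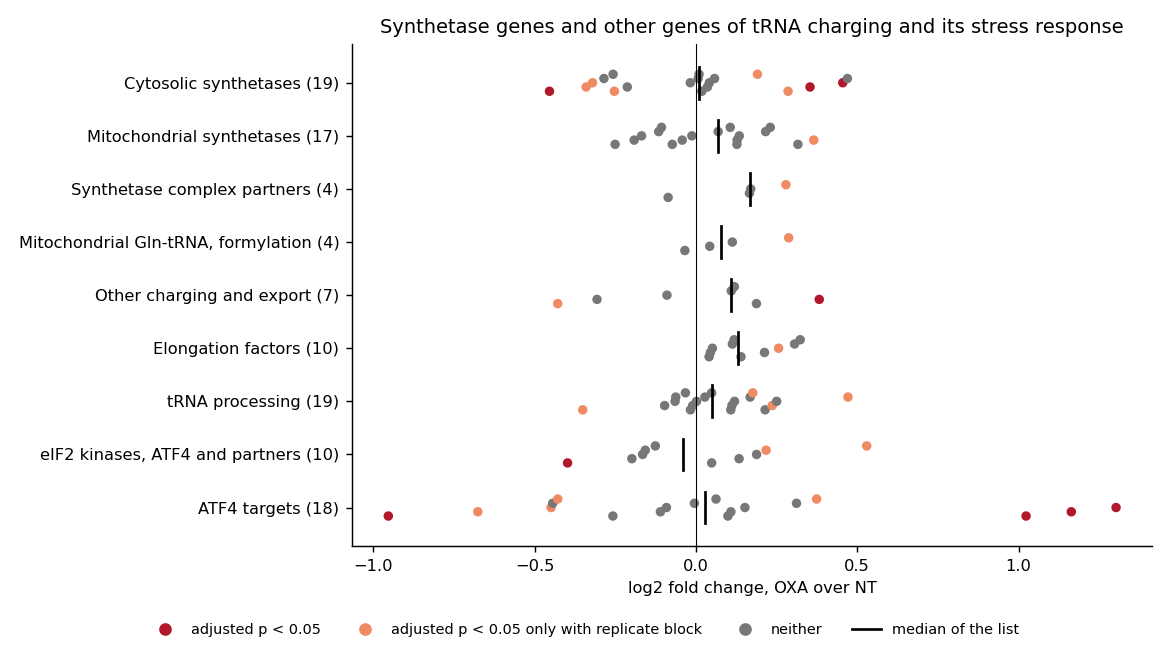
Log2 fold change, OXA over NT, of each gene in the synthetase sets and in the other lists of tRNA charging and its stress response, 1 point a gene, with dark red for an adjusted p under 0.05 in edgeR, orange for genes under 0.05 only with the replicate block, grey for the others and a bar at the list median. Synthetase genes lie between -0.45 and 0.47, whereas the ATF4 targets reach from -0.95 (ASNS) to beyond 1 (ATF3, SESN2 and DDIT4), and the 10 elongation factors lie on the right of 0 with no dark red point.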

How the data were processed

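RNA from 6 libraries (3 NT, 3 OXA) of HCT116 cells was measured. The authors deposited raw counts per gene, made from reads trimmed with Trimmomatic 0.32 and mapped with STAR 2.7.5b to GRCh38, and RSEM 1.3.3 and DESeq2 2.13 are also named in the submitters' processing notes. The gene annotation and the strand setting of the counting are not given in the sources used here. The deposited normalized signal of each gene is the raw count multiplied by the authors' factors, which differ between genes and libraries, and it was used only as an alternative scaling.

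Genes were kept with edgeR's filter (minimum count 10, minimum total 15), scaled by TMM and tested with the quasi-likelihood test of edgeR 4.0.16 under R 4.3.3. The p-values were adjusted by Benjamini-Hochberg across the 13727 genes, at a threshold of 0.05. Versions of the alternative tools were DESeq2 1.42.0 and limma 3.58.1. Library totals were 32979521 to 40967880 counts. CPM values are counts scaled by the library total after TMM. Transcript length, GC and positions came from GENCODE 44, matched by gene identifier. Alternatives were other scalings, filters and tools, the replicate block, the block with GC and length trends removed (chosen after seeing the data), and leaving out each library; the pair ratios and other lists without NT1 were added after seeing the data. Same-numbered libraries deviated together (r 0.765, 0.767 and 0.438; differently numbered -0.649 to 0.183), so the numbers were taken to pair the libraries; the labels do not say what the numbers share. Of the 6 pairs of libraries within a group, 0 agreed within sampling noise.

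The synthetase genes and all gene lists were chosen with earlier results of these data known. Values in every library are given for members called without the block, then for those called with it, then for the highest and lowest level per length in each compartment, and of the other lists the called genes, EPRS, ATF4, DDIT3, ASNS and EIF2AK4 are named. XPOT, PHGDH, PPP1R15A, AIMP1, GFM2, GATC, ELAC2, POP1, TRMT1 and TRDMT1 were added after their values were seen, as were the elongation factors named. STC2 and SLC7A11 passed only with the block and were counted with the ATF4 targets but not described. The values of 1 member are not reported here by name and entered only the counts, sums and medians of the sets.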

Additional observations from a re-analysis of the deposited data

How the results depend on the processing

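Of the 36 synthetase genes, 23 kept the direction of their fold change in all 15 alternative fits and 13 turned in at least 1; AARS, SARS and HARS kept theirs. The number of genes higher in OXA (2) was 1 with DESeq2 size factors in edgeR, 1 with no filter, 1 with limma-voom, 0 with the authors' gene-specific factors, 5 with the replicate block, 10 with the block and GC and length trends removed, where 44% of all genes were called, 0 where a 1.5-fold change was required, and 0 to 2 when 1 library was left out. The number lower (1) was 2 with DESeq2, 4 with the replicate block, 11 with the block and trends removed, 0 with the 1.5-fold requirement, and 0 to 2 when 1 library was left out. The shares of all genes called, in either direction, also changed. They were 4.95% with DESeq2 size factors in edgeR, 3.5% with no filter, 4.84% with limma-voom and 3.21% with the authors' factors. With DESeq2 the share was 9.24%, with the replicate block 23%, with the 1.5-fold requirement 3.41%, and with 1 library left out 0.611% to 8.6%. The cause of the differences in these counts was not tested. The cytosolic median (0.0096) was -0.0735 to 0.11 and the mitochondrial median (0.07) was -0.0026 to 0.08 when 1 library was left out, and the mitochondrial median was -0.0355 with the authors' factors. The difference in the log2 ratio of summed counts stayed within its spread in every alternative run, at -0.05 to 0.03. It was -0.06 where geometric means of the genes replaced the sums. Reversed values were small. With the authors' factors LARS2 was at -0.0477, FARSB at -0.0129, WARS at -0.0153 and IARS at -0.0132, with no filter DARS was at -0.0199, FARSB at -0.0232 and IARS at -0.0112, and with the block and trends removed EARS2 was at 0.0038. When 1 library was left out, reversed genes ranged from -0.0471 to 0.27 (AARS2), -0.0737 to 0.11 (DARS), -0.0778 to 0.0195 (EARS2), -0.0888 to 0.13 (FARSB), -0.0735 to 0.12 (IARS), -0.0400 to 0.17 (NARS), -0.12 to 0.013 (NARS2), -0.085 to 0.0068 (QARS), -0.0585 to 0.17 (RARS), -0.0119 to 0.20 (TARS2), -0.28 to 0.11 (VARS2), -0.0168 to 0.0629 (WARS) and -0.19 to 0.0467 (EPRS).

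With the replicate block, calls over all genes went from 5.07% to 23.0%, and the calls added among the synthetase genes are given beside each gene; the block ended no call. Each group has 3 libraries, so exact tests of single ratios cannot pass 0.05.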

Other observations

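Genes that act before and after charging were also counted, beside the shares of all genes. The 10 genes of elongation and delivery bring charged tRNA to the ribosome or move it along. All 10 had positive fold changes, from 0.04 for EEF1A1 to 0.32 for EEF1A2. Their median was 0.13, beside 0.02 over all genes tested, of which 7313 of 13727 were positive. In edgeR without the block 0 of the 10 were called, beside 5.07% of all genes. An unadjusted p under 0.05 was found for 0, beside 21.7%, and DESeq2 called 0, beside 9.24%. Without NT1, 8 of the 10 were positive with a median of 0.08: EEF1D was at -0.14, EEF2 at -0.03 and EEF1A2 at 0.03. EEF1A1, the cytosolic factor that carries charged tRNA, stood at 14855 ± 1299 CPM (SD, n = 3) in NT and 15280 ± 1087 CPM in OXA. With the block, GFM2 of mitochondrial ribosome recycling was called at an adjusted p of 0.0302 in edgeR and a log2 fold change of 0.26. It was the only call of the 10, or 10% beside 23.0% of all genes with the block. Of 20 genes of tRNA processing and modification, 19 were tested and 0 were called in edgeR without the block or in DESeq2. The shares of all genes were 5.07% in edgeR and 9.24% in DESeq2. An unadjusted p under 0.05 was found for 2 of the 19, beside 21.7% of all genes. With the block, 3 were higher and 1 was lower, or 21.1% beside 23.0% of all genes. These were ELAC2, which trims tRNA 3′ ends, at 0.24, POP1, a subunit of RNase P, at 0.18, TRMT1, a tRNA methyltransferase, at 0.47 (0.25 without NT1), and TRDMT1, another tRNA methyltransferase, at -0.35. The list median was 0.05. The mitochondrial path to glutaminyl-tRNA, which has no synthetase of its own, was represented by QRSL1, GATB and GATC of the amidotransferase, and MTFMT, which formylates the initiator methionyl-tRNA, was counted with them. Of these 4, 0 were called in edgeR without the block or in DESeq2, beside 5.07% and 9.24% of all genes. An unadjusted p under 0.05 was found for 1 of the 4, beside 21.7%. GATC was called with the block, at a log2 fold change of 0.29 and an adjusted p of 0.0168 in edgeR. It was the only call of the 4 with the block, or 25% beside 23.0% of all genes.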
